A study of Mus musculus with 6 samples.

Results

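Ion channel subunits of the voltage-gated sodium, calcium and potassium channel families, together with the other potassium channels, were examined in 2 populations of cells sorted from ventral mesencephalon, the floor of the midbrain, of mice at embryonic day 12.5. The members were all probe sets whose single platform gene symbol names such a subunit (Kcn, Scn with suffix a or b, Cacna1, Cacna2d, Cacnb or Cacng). This gave 243 of 45037 probe sets other than controls, which name 115 of 18201 genes. No measured value entered this choice. Messenger RNA was measured on 1 Affymetrix array per sample, 6 in all. The first group held 3 arrays of GFP-positive cells from Ngn2-GFP reporter mice on a CD1/129 background, labelled midbrain dopaminergic progenitors and called positive cells here. The second held 3 arrays of GFP-negative cells from Lmx1a-GFP reporter mice on a C57BL/6 background, labelled a non-dopaminergic progenitor population and called negative cells here. Neurog2 (Ngn2) is a proneural transcription factor and Lmx1a a transcription factor of dopaminergic progenitors. How the reporters were made, and the number of embryos behind a sample, are not stated in the labels. The series calls the arrays of a group biological replicates. Both groups carry a GFP reporter, and strain, reporter and sort gate differ between the groups on every array, so their parts in a difference cannot be told apart.

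A voltage-gated sodium or calcium channel consists of a large pore-forming alpha subunit with smaller auxiliary subunits, which change its gating and its delivery to the cell surface. Potassium channels are assembled from smaller pore subunits and set the resting potential, repolarize the action potential and shape firing patterns. In mature midbrain dopaminergic neurons, pacemaker firing is shaped by the L-type calcium channel subunit Cacna1d, the A-type potassium channel subunit Kcnd3 with its partner Kcnip3, the calcium-activated channel Kcnn3 and the G protein-coupled inward rectifier Kcnj6, which dopamine autoreceptors open. The arrays were taken from embryos in which the dopaminergic neurons are being born.

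The labels were checked on marker lists, given as the sum of the tested members' signals per array. Of 8 tested dopaminergic neuron markers 7 were higher in positive cells and none lower, with sums of 4100 to 5590 in positive and 1430 to 1820 in negative cells. Of 11 general neuron markers none passed, with sums of 15500 to 22700 in positive and 18200 to 23000 in negative cells. The dopaminergic markers Pitx3 and Aldh1a1 were under the filter for dim probe sets. Of 9 radial glia and progenitor markers 2 were lower in positive cells, with sums of 4950 to 7670 in positive and 8850 to 10400 in negative cells. Of 8 midbrain GABAergic markers 6 were lower, with sums of 2460 to 2680 in positive and 5930 to 6190 in negative cells. All 5 tested erythroid markers were lower, with sums of 297 to 618 in positive and 7510 to 14900 in negative cells, as were 4 of 5 tested macrophage markers, with sums of 18.5 to 32.8 in positive and 347 to 714 in negative cells. None of 5 tested pericyte and mesenchyme markers passed, with sums of 70.0 to 114 in positive and 93.1 to 131 in negative cells, and none of 8 endothelial markers exceeded the filter level on 3 arrays. The endothelial marker Kdr came closest, with 11.8, 24.2 and 27.1 in positive cells, against 7.96, 0.338 and 6.6 in negative cells, and its groups did not overlap. These dim markers went both ways. The groups of Pecam1 (log2 difference 1.29) and Esam (-0.49) did not overlap either, and Cldn5 had lower values in positive cells (-1.06). No direction of endothelial signal is read from them. Kcnj8, a channel gene that marks pericytes, was also under that filter. Positive replicates 1 and 2 stood apart in the hybridization spike-ins, which averaged 2523 and 2619 there. The average was 5537 for positive replicate 3, and the negative arrays had averages between 4687 and 7244. The same 2 arrays were low in 18S ribosomal RNA signal, at 3713 and 3696, against 8298 for positive replicate 3 and 7241 to 9276 in negative cells. Their 3' to 5' signal ratio of Gapdh, a sign of RNA integrity, was also the lowest, at 4.41 and 4.73, against 8.84 for positive replicate 3 and 5.94 to 9.21 in negative cells. The part of these cell types, of RNA integrity and of the spike-in split in the channel results was not tested. A fit with the spike-in level as a block sets positive replicate 3 alone against the negative arrays, and its values are given beside several of the genes that moved in it.

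The share of channel genes with enough signal to be tested was near that of all annotated genes. Of the 115 genes, 70 (60.9%) had a probe set above the filter level, the 40th percentile of the array, on at least 3 arrays, against 66.2% of all annotated genes. The filter level lay between 10.2 and 15.8. Tested members were unevenly spread over the families, with 13 of 15 calcium channel auxiliary subunits, 6 of 9 calcium alpha1 subunits, 5 of 8 sodium alpha and 2 of 3 sodium beta subunits. Of the Kcnma, Kcnmb, Kcnn, Kcnt and Kcnu potassium channel subunits, most of them calcium- or sodium-activated, 10 of 11 were tested. Among other potassium channels 9 of 13 Kv pore subunits (Kcna to Kcnd), 10 of 15 inward rectifiers, 5 of 6 Kcnh subunits and 5 of 11 Kv accessory subunits were tested. At the low end stood 3 of 12 tandem pore (K2P) leak channels, 1 of 9 electrically silent Kv subunits and 1 of 3 Kcnq subunits.

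The 45 genes that were not tested were above the filter level on 2 arrays at most, and 23 of them on none. They were Cacna1f, Cacna1g, Cacna1s, Cacnb2 and Cacng1 among calcium channel genes and Scn7a, Scn10a, Scn11a and Scn4b among sodium channel genes. Among Kv genes they were Kcna1, Kcna5, Kcna7, Kcnc2, Kcnf1, Kcng1, Kcng2, Kcng4, Kcns1, Kcns3, Kcnv1, Kcnv2, Kcnq1, Kcnq5, Kcnh5, Kcnab3, Kcnip2 and Kcne1 to Kcne4. The others were Kcnj4, Kcnj8, Kcnj12, Kcnj15, Kcnj16, Kcnk1, Kcnk4, Kcnk5, Kcnk6, Kcnk7, Kcnk12, Kcnk13, Kcnk15, Kcnk16 and Kcnmb1. The highest signal of any of their probe sets on any array was 37.7 (Kcnk1, positive replicate 1). A dim probe set shows only that little signal was measured by these probes.

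Of the 70 tested channel genes 1 differed between the populations at an adjusted p under 0.05 (limma with Benjamini-Hochberg adjustment over 12047 genes). It was Cacna2d1, which was higher in positive cells. Over all tested genes 0.423% were called higher and 0.639% lower. None of the 70 was called lower by limma. At an unadjusted p under 0.05 there were 11 channel genes with higher and 2 with lower values, against 5.68% and 5.08% of all tested genes. The log2 difference, positive minus negative, had a median of 0.31 over the 70 genes and 0.03 over all tested genes, and it was above 0 for 47 of the 70 and for 52.4% of all. Without a filter the median over all 115 channel genes was 0.08, and without negative replicate 3 the median of the tested channel genes was 0.17. Per array, the median log2 signal of the 70 genes was 5.71, 5.53 and 5.68 in positive and 5.56, 5.07 and 4.87 in negative cells. The groups overlap in this median, since negative replicate 1 lay above positive replicate 2. In sorted samples of this kind, fewer cells of a type and less RNA per cell cannot be told apart.

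**Figure D1:**
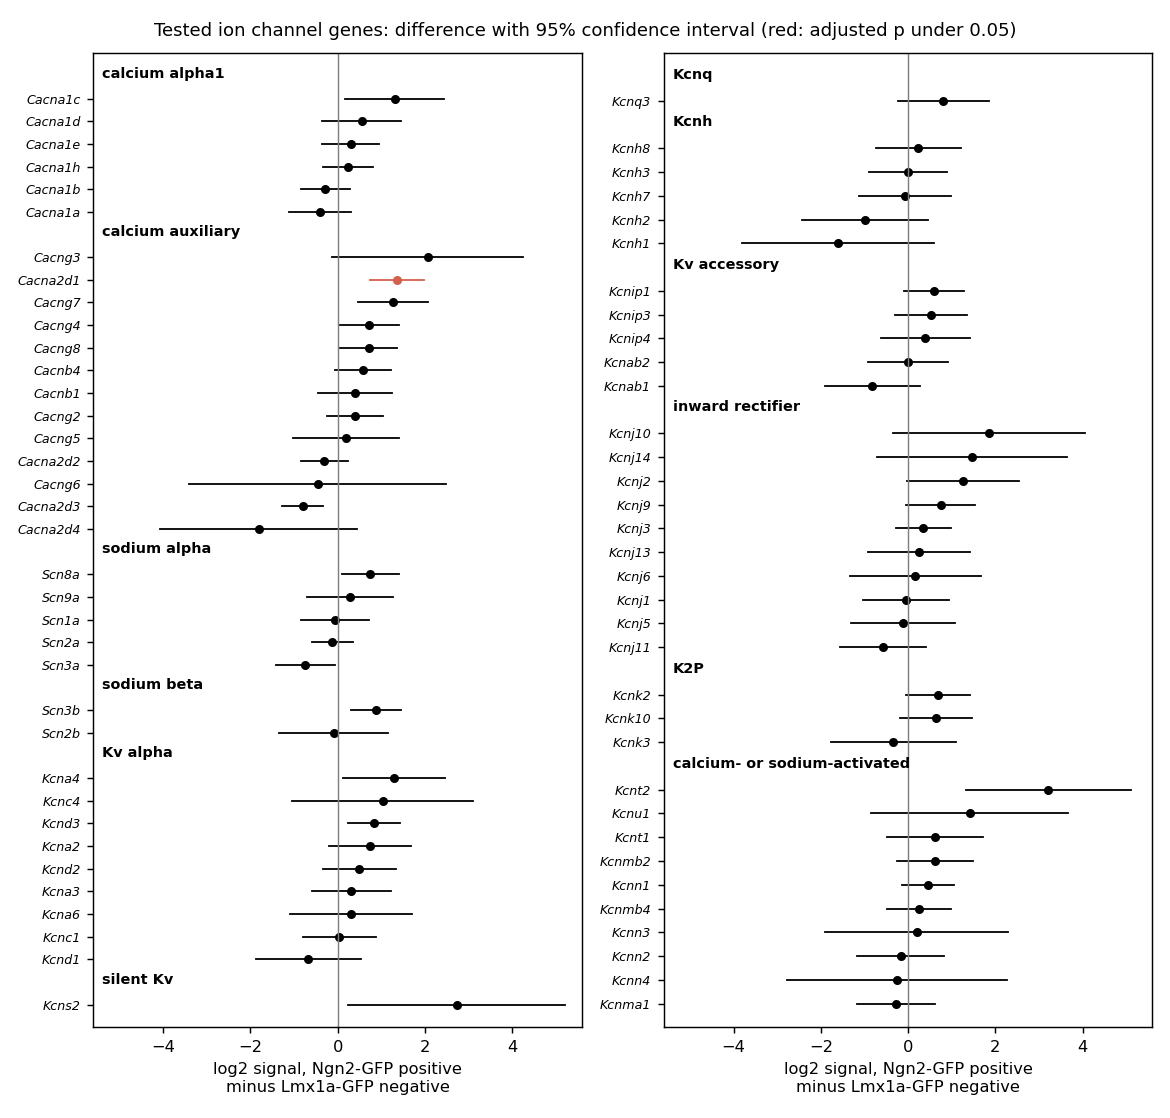
Log2 difference in signal, positive minus negative cells, for the 70 tested channel genes by family, with the 95% confidence interval of the limma fit (3 arrays per group). Cacna2d1, in red, was the 1 gene past the adjusted threshold, and most intervals include 0.

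Cacna2d1 encodes an auxiliary calcium channel subunit of the alpha2delta kind, which raises the number of channels at the cell surface and binds the drug gabapentin. Its signal was 448, 667 and 291 in positive cells, against 214, 159 and 152 in negative cells. All 3 positive arrays lay above all 3 negative ones, and positive replicate 3 was the lowest of its group. The log2 difference was 1.36 (SE 0.29, n = 3 arrays per group, adjusted p = 0.0443), with a 95% confidence interval of 0.74 to 1.98. The call did not hold in 12 of 16 alternative settings, where adjusted p reached 0.746, while the difference was positive in all 16 (0.53 to 1.66). With the spike-in level as a block it was 0.75 (adjusted p = 0.746).

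The 5 probe sets of Cacna2d1 were all tested, and all had higher group means in positive cells. Probe set 1425861_x_at gave 432, 357 and 249 in positive cells, against 173, 59.8 and 99.7 in negative cells. Its difference of 1.74 (SE 0.35) was the 1 call among 134 tested channel probe sets when each probe set was fitted on its own (adjusted p = 0.0406). In that fit 0.233% of all tested probe sets were called higher and 0.414% lower, and the gene's representative probe set 1449999_a_at missed the threshold (adjusted p = 0.0579). The other probe sets differed by 0.53, 0.67 and 0.40, none past the threshold. The groups of 1433643_at did not overlap, at 214, 234 and 342 in positive and 144, 197 and 201 in negative cells, and those of 1440397_at and 1441608_at did. The suffix _x marks probe sets whose probes may also bind other transcripts, and _a those that bind several transcripts of 1 gene.

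**Figure D2:**
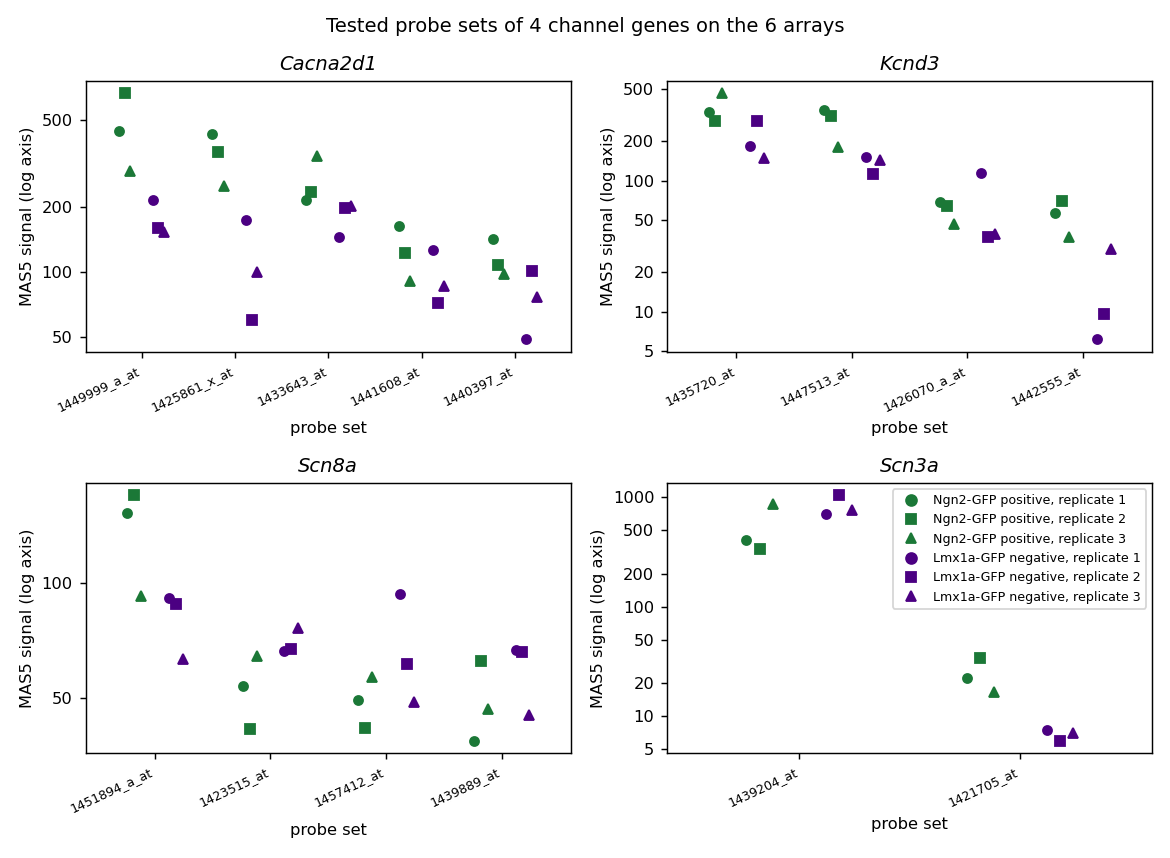
MAS5 signal (log axis) of every tested probe set of Cacna2d1, Kcnd3, Scn8a and Scn3a on each array, positive cells in green left of negative cells in purple, with 1 marker shape per replicate number. All 5 probe sets of Cacna2d1 and all 4 of Kcnd3 had higher means in positive cells, while those of Scn8a went both ways. The dimmer probe set of Scn3a was tested only through the group in which it was high, so no direction is read from it.

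The groups did not overlap for 14 of the 70 tested genes, with 11 higher in every positive array and 3 lower. Among all tested genes 8.21% were higher and 7.25% lower in this way. The 11 were Cacna2d1, Kcnt2, Cacna1c, Kcna4, Cacng7, Scn3b, Scn8a, Kcnj9, Cacng8, Kcnt1 and Cacng2, and the 3 were Kcnab1, Cacna2d3 and Kcnd1. Other than Cacna2d1 none of them passed the adjusted threshold, with adjusted p between 0.145 and 0.686.

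**Figure D3:**
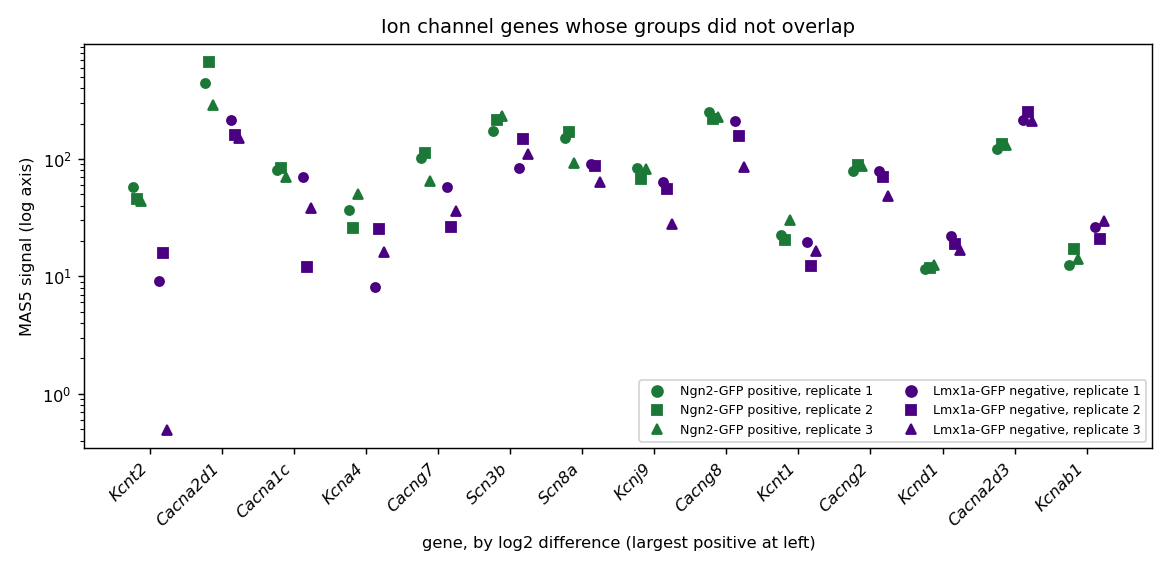
MAS5 signal (log axis) on each array of the 14 channel genes whose groups did not overlap, positive cells in green left of negative cells in purple, ordered by log2 difference. The gap between groups is narrow for Cacng2, Cacna1c, Scn8a, Kcna4, Cacng8, Kcnt1 and Kcnj9. Negative replicate 3 of Kcnt2 lies far below the other arrays at 0.494.

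Among the calcium channel pore subunits, Cacna1c, an L-type subunit, had signals of 80.6, 84.6 and 70.6 in positive cells, against 69.9, 11.9 and 38.5 in negative cells. The negative arrays were spread widely, and negative replicate 1 came close to the positive ones. The difference was 1.30 (SE 0.53, adjusted p = 0.386). Another tested probe set of Cacna1c, 1435730_at, differed by 0.38, and its groups overlapped. Cacna1d, the L-type subunit tied to dopaminergic pacemaking, had 54.6, 41.2 and 70.8 in positive cells, against 45.9, 52.1 and 21.3 in negative cells. Those groups overlapped, and the difference was 0.55 with a 95% interval of -0.36 to 1.46 (adjusted p = 0.655). Cacna1b, the N-type subunit of presynaptic terminals, had 820, 779 and 1258 in positive cells, against 1085, 1516 and 879 in negative cells, which also overlapped (-0.28, SE 0.26, adjusted p = 0.713). The spike-in block turned the sign of Cacna1b (0.15). Cacna1h, a low-threshold T-type subunit, differed by 0.23 (SE 0.26, adjusted p = 0.768), and by -0.16 with that block.

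By their representative probe sets the other alpha2delta genes had lower values in positive cells, and none of them passed. Cacna2d3 had 122, 135 and 132 in positive cells, against 217, 249.7 and 212 in negative cells. All 3 positive arrays were lower and close together, and the difference was -0.80 (SE 0.22, adjusted p = 0.145), with a 95% interval of -1.27 to -0.33. Cacna2d2 had 2753, 2441 and 3767 in positive cells, against 2869, 4168 and 4020.3 in negative cells, and the groups overlapped (-0.31, SE 0.25, adjusted p = 0.678). With quantile normalization or the spike-in level as a block the sign of Cacna2d2 turned (0.17 and 0.05). A 2nd tested probe set of Cacna2d2 had the opposite sign (0.28), and the mean of both gave -0.012. Cacna2d4 was above the filter level on 1 positive and 2 negative arrays (-1.81). Whether Cacna2d1 and Cacna2d3 differed from each other in their response was not tested.

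The Cacng genes encode proteins of which several, the TARPs, carry AMPA-type glutamate receptors to the synapse more than they act on calcium channels. Cacng7 had 102, 114 and 65.6 in positive cells, against 57.4, 26.6 and 35.8 in negative cells, a difference of 1.27 (SE 0.37, adjusted p = 0.2). A 2nd tested probe set of Cacng7 had the opposite sign (-0.44), and the spike-in block gave 0.79 for the gene. Cacng8 had 251, 218 and 226 in positive cells, against 210.5, 157 and 85.5 in negative cells (0.71, SE 0.30, adjusted p = 0.415). For Cacng2, also called stargazin, the lowest positive array, at 79.5, was just above the highest negative array, at 79.2, and the difference was 0.39 (adjusted p = 0.653). Of the 13 tested auxiliary subunits 9 had higher and 4 lower values in positive cells, with a median of 0.40.

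Among sodium channel genes the signs were mixed. Scn3b, an auxiliary beta subunit, had 173, 217 and 232 in positive cells, against 84.0, 149 and 111 in negative cells. The groups did not overlap, and the difference was 0.88 (SE 0.26, adjusted p = 0.214). Its other tested probe set had the same sign (1.24), and with the mean of its probe sets the gene passed (1.06, adjusted p = 0.0216). Scn2b, the other tested beta subunit, differed by -0.10 with a wide 95% interval of -1.35 to 1.16.

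Scn3a, a pore subunit of embryonic neurons, had 408, 336 and 865 in positive cells, against 697, 1045 and 762 in negative cells. Positive replicates 1 and 2 lay below every negative array and positive replicate 3 among them, with a difference of -0.74 (SE 0.31, adjusted p = 0.409). Without positive replicate 3 the gene was called lower (-1.15, adjusted p = 0.0186), and with the spike-in level as a block the difference was 0.07. The other tested probe set of Scn3a, 1421705_at, gave 22.4, 33.7 and 16.5 in positive cells, against 7.5, 5.9 and 6.9 in negative cells. It exceeded the filter level on the 3 positive arrays and on no negative array, so it was tested only through the group in which it was high, and no direction of the gene is read from it. The mean of both probe sets, which includes it, gave a difference of 0.52 (adjusted p = 0.428).

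Scn8a, a pore subunit that clusters at the axon initial segment of mature neurons, had 152, 169.7 and 92.6 in positive cells, against 91.2, 87.9 and 63.3 in negative cells. The difference was 0.75 (SE 0.30, adjusted p = 0.385). Its 3 other tested probe sets had lower means in positive cells (-0.41, -0.27 and -0.42), and the groups of 1423515_at did not overlap in that direction. With the mean of its probe sets the gene's difference was -0.09, and with the spike-in block 0.21. Scn2a, a pore subunit of young axons, had 192, 229 and 239.6 in positive cells, against 270.0, 224 and 224 in negative cells. This representative probe set differed by -0.12, with a 95% interval of -0.58 to 0.34 (adjusted p = 0.864). The other tested probe sets of Scn2a went both ways (1.03, 0.34 and -0.45). Of these, 1427281_at had groups that did not overlap, with higher values in positive cells. The mean of the probe sets of Scn2a gave 0.20.

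By their representative probe sets 8 of the 9 tested Kv pore subunits had higher and 1 lower values in positive cells. The median was 0.49, and none passed. The tested probe sets of Kcna2, Kcnc1, Kcnd1 and Kcnd2 went both ways. Kcnd3, the A-type subunit of dopaminergic neurons, had 335, 283 and 464 in positive cells, against 185, 286 and 149 in negative cells. Negative replicate 2 lay just above positive replicate 2, so the groups overlapped. The difference was 0.83 (SE 0.28, adjusted p = 0.274), with a 95% interval of 0.23 to 1.43. All 4 tested probe sets of Kcnd3 had higher means in positive cells, by 0.83, 1.0, 2.13 and 0.11. The groups of 1447513_at and 1442555_at did not overlap. Probe set 1442555_at, which gave 2.13, exceeded the filter level on 3 positive arrays and on 1 negative array. It had 6.17, 9.54 and 30.1 in negative cells, so its value depends on signals under the filter level. With the spike-in level as a block the difference of Kcnd3 was 1.22 (adjusted p = 0.392).

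Kcna4, another A-type subunit, had 37.1, 26.05 and 50.3 in positive cells, against 8.09, 25.1 and 16.2 in negative cells (1.30, SE 0.54, adjusted p = 0.404). Kcna2, a delayed rectifier of axons, had 50.2, 55.6 and 64.0 in positive cells, against 30.8, 20.2 and 61.9 in negative cells. Its difference was 0.74 (SE 0.43, adjusted p = 0.554). The other tested probe sets of Kcna2 differed by 0.03 and -0.81, and the mean of its probe sets gave -0.011. Kcnc1, of the fast-spiking Kv type, differed by 0.04 (SE 0.38). Its other tested probe sets had the opposite sign (-0.18, -0.52 and -0.66), and the mean of its probe sets gave -0.33. Kcnd1 was lower on every positive array, at 11.6, 11.9 and 12.6, against 22.2, 18.8 and 16.8 in negative cells (-0.67, SE 0.56, adjusted p = 0.686), but it exceeded the filter level on 1 positive array only.

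Among the partners of Kv channels, Kcnip3 had 88.2, 48.8 and 48.7 in positive cells, against 50.05, 29.1 and 47.6 in negative cells (0.53, SE 0.38, adjusted p = 0.636). Kcnip1, of the same family of calcium-binding partners of Kcnd channels, differed by 0.59 (SE 0.32, adjusted p = 0.517). Its 2 other tested probe sets had the opposite sign (-0.09 and -0.16), and the mean of its probe sets gave 0.12. Kcnab1, an intracellular beta subunit, had 12.6, 17.1 and 14.0 in positive cells, against 26.6, 20.9 and 30.0 in negative cells. Its groups did not overlap, its 2 tested probe sets differed by -0.82 and -0.78, and the gene did not pass (SE 0.50, adjusted p = 0.577). The silent subunit Kcns2, which acts by joining other Kv subunits, had 15.6, 8.3 and 78.3 in positive cells, against 2.23, 15.6 and 0.857 in negative cells, a difference of 2.73 (SE 1.15, adjusted p = 0.407). Its groups overlapped, and positive replicate 3 was far above the other arrays. The spike-in block gave 4.59 for Kcns2. Kcnq3, a subunit of the M-current that limits repetitive firing, differed by 0.81 (SE 0.48, adjusted p = 0.563) and by 1.43 with the spike-in block. A 2nd tested probe set of Kcnq3 had the opposite sign (-0.10), and the mean of both gave 0.35. Of the Kcnh family, Kcnh2 differed by -0.99 (SE 0.66, adjusted p = 0.612), with 5.95 to 53.0 in positive and 34.9 to 47.0 in negative cells, and Kcnh3 by -0.01 (SE 0.41). The sign of Kcnh2 turned with the spike-in block (0.46).

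The sodium-activated channel Kcnt2 had a signal of 58.2, 45.5 and 43.6 in positive cells, against 9.14, 15.8 and 0.494 in negative cells. It exceeded the filter level on all 3 positive arrays and on negative replicate 2 alone. The difference was 3.21 (SE 0.87, adjusted p = 0.148), with a 95% interval of 1.32 to 5.11. This value depends on negative signals under the filter level, of which that of replicate 3 was set to the floor of 1. It was 2.02 without negative replicate 3 and 4.01 without negative replicate 2. On the scale of log2 of the signal plus 32, which shrinks differences of dim genes, it was 1.02 and passed (adjusted p = 0.0188). Its paralog Kcnt1 had 22.6, 20.4 and 30.5 in positive cells, against 19.6, 12.4 and 16.3 in negative cells (0.61, SE 0.51, adjusted p = 0.682).

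None of the calcium-activated channels of small conductance passed. Kcnn3, the type of mature dopaminergic neurons, had 3.2, 18.1 and 21.3 in positive cells, against 8.55, 3.67 and 26.3 in negative cells. The groups overlapped fully, and the 95% interval of the difference, -1.90 to 2.29, was wide. Kcnn1 had 333, 335 and 167 in positive cells, against 191, 183 and 208 in negative cells (0.45, SE 0.28, adjusted p = 0.574), so that positive replicates 1 and 2 were high and positive replicate 3 was below every negative array. With the spike-in level as a block the difference of Kcnn1 was -0.22. A 2nd tested probe set of Kcnn1 had the opposite sign (-0.61), and the mean of both gave -0.08. Kcnn2 differed by -0.17 (SE 0.46), and Kcnmb4, an auxiliary subunit of large-conductance channels, by 0.25 (SE 0.34).

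Among inward rectifiers the G protein-coupled channels are those that dopamine and GABA receptors open. Kcnj6, the subunit typical of mature dopaminergic neurons, had 17.8, 9.69 and 30.5 in positive cells, against 28.8, 19.7 and 6.54 in negative cells. It exceeded the filter level on 2 arrays of each group, and its difference of 0.17 had a 95% interval of -1.34 to 1.68, while the spike-in block gave 0.98 (adjusted p = 0.988). Kcnj9 had 83.3, 68.1 and 82.9 in positive cells, against 64.2, 55.5 and 28.1 in negative cells, which did not overlap (0.74, SE 0.36, adjusted p = 0.487). Kcnj3 differed by 0.35 (SE 0.29, adjusted p = 0.68) and Kcnj5 by -0.12 (SE 0.55). Kcnj11, the pore of ATP-sensitive channels, had 31.5, 42.3 and 17.9 in positive cells, against 55.6, 51.2 and 28.0 in negative cells (-0.58, SE 0.45, adjusted p = 0.664), and the spike-in block gave -1.26 (adjusted p = 0.796).

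Of the K2P leak channels, Kcnk2 had 109.8, 99.9 and 129 in positive cells, against 42.7, 76.7 and 103 in negative cells, with groups that overlapped slightly (0.69, SE 0.34, adjusted p = 0.488). Kcnk10, a mechanosensitive channel of the same subfamily, had 189, 164 and 100.3 in positive cells, against 119, 50.3 and 139.6 in negative cells (0.63, SE 0.38, adjusted p = 0.567). A 2nd tested probe set of Kcnk10 had the opposite sign (-0.60), and the spike-in block gave 0.09 for the gene.

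Different probe sets of a channel gene often disagreed in sign, and the matching share over all genes is not given here. Of the 70 genes 38 had more than 1 tested probe set, with 64 beside the representative ones. Of these 64, 35 had the sign of the representative probe set and 29 the opposite sign. All tested probe sets had higher means in positive cells for 17 of the 38 genes, among them Cacna2d1 (5 probe sets), Kcnd3 and Scn9a (4 each) and Cacnb1, Cacng2 and Kcnj3 (3 each). They all had lower means for Kcnab1 alone, and went both ways for 20 genes. Over the 134 tested channel probe sets the groups did not overlap for 24 higher and 5 lower ones, against 8.28% and 6.24% of all tested probe sets. The 29 and the 24 include 1421705_at of Scn3a, which was tested only through the group in which it was high.

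**Figure D4:**
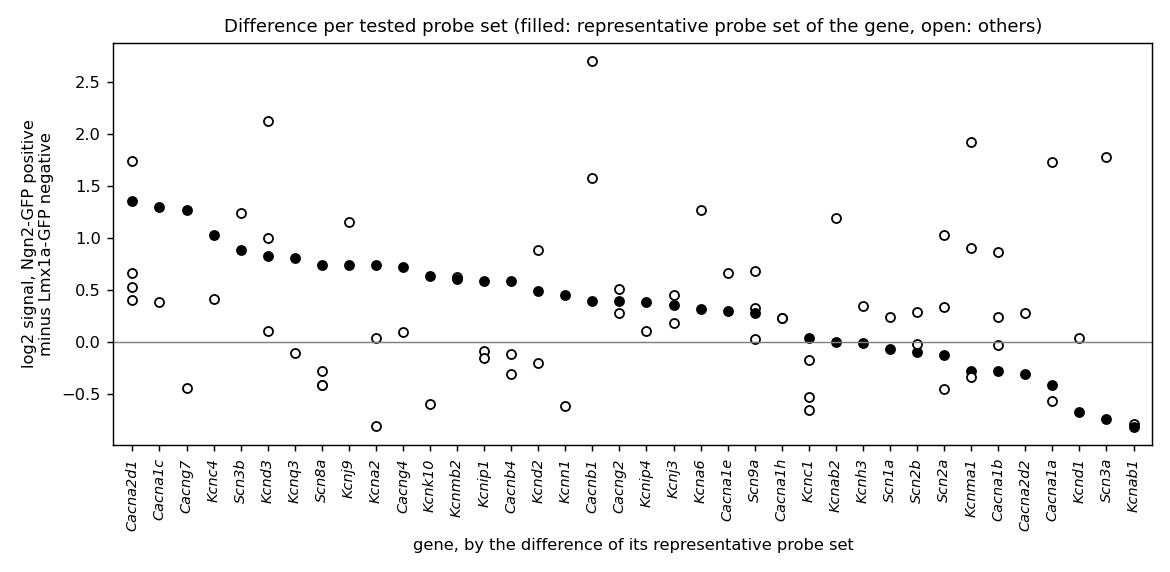
Log2 difference, positive minus negative cells, of every tested probe set of the 38 channel genes with more than 1, ordered by the representative probe set (filled). Open points on the other side of 0 from the filled point, as for Scn8a, Kcnc1 and Kcnma1, are the 29 of 64 probe sets with the opposite sign. The open point of Scn3a was tested only through the group in which it was high.

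Precision followed the signal. The 46 channel genes above the filter level on all 6 arrays had a median standard error of 0.37 on the log2 scale, and the other 24 tested genes one of 0.79. The median difference was 0.33 over the 46 genes, of which 32 had higher values in positive cells, and 0.25 over the 24, of which 15 did. Over all tested genes those above the filter level on all 6 arrays had a median difference of 0.02 and a median standard error of 0.28.

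Genes outside these families that bear on excitability were taken from a list of 37, of which 25 were tested. None passed in either direction, with 18 at higher and 7 at lower values in positive cells and a median of 0.18. Fgf13, a partner of sodium channels, differed by 0.62 (SE 0.25, adjusted p = 0.388). The related genes on the list went both ways, with Fgf11 at 0.23, Fgf12 at -0.44 and Fgf14 at -0.18. Of these, Fgf12 alone had groups that did not overlap. Ank3, which anchors sodium channels at the axon initial segment, differed by -0.69 (SE 0.32, adjusted p = 0.456). Dpp6, a partner of Kcnd channels, differed by 0.57 (SE 0.31, adjusted p = 0.516). Rest, a repressor of neuronal channel genes in other cell types, differed by -0.77 (SE 0.30, adjusted p = 0.372). These genes were picked from the list after their values were seen.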

How the data were processed

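RNA was measured on 6 arrays, 3 per group. The deposited intensity values of 45101 probe sets are signals on a linear scale. Per the submitters' processing notes, the tools used were MAS5, limma and R 2.14.2. Every array has a 2% trimmed mean of 100. Detection calls were not used. After removal of 64 controls, 45037 probe sets remained, with a single gene symbol for 34957, several for 920 and none for 9160. All 115 channel genes matched the GRCm38 gene table by Entrez ID, with 0 symbols changed.

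Signals were floored at 1 before the log2 transform. A probe set was tested if above its array's 40th percentile on at least 3 arrays, and the one with the highest mean log2 signal represented its gene. limma 3.58.1 in R 4.3.3 (lmFit, eBayes with trend, two-sided, 4 residual degrees of freedom) was fitted over all 12047 tested genes, with Benjamini-Hochberg adjustment and a threshold of 0.05. The fit was tested on simulated data. Figures used matplotlib 3.10.9. The number of arrays limits precision.

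The rule for named genes took members past the threshold, the 10 largest differences each way among genes whose groups did not overlap, the 2 tested members of highest signal in each of 12 families, and a list of genes known from neurons, not all of which are reported here. Kcnma1, Cacna2d4, Cacng2, Scn9a, Cacnb1, Kcnd2 and the untested genes were named to complete counts or figures. Members and lists were chosen with earlier results of these data known, though the rule for members used gene symbols alone. Same-numbered arrays of the groups correlated at 0.14, -0.10 and 0.03 in their deviations from group means, so the numbers were not taken as pairs. The 16 alternatives were 2 normalizations, 2 filters, an offset of 32, no trend, 2 choices of probe set, blocks on replicate number or spike-in level, and leaving out each of the 6 arrays. A fit of every tested probe set on its own, adjusted over 23177 probe sets, is not counted among them.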

Additional observations from a re-analysis of the deposited data

How the results depend on the processing

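The median difference of the tested channel genes was positive in all 16 alternatives and moved by less than the spread between arrays, from 0.08 without a filter to 0.51 with the filter at the 60th percentile; without 1 array it lay between 0.17 and 0.48. The count of channel genes called higher, 1 in the reported fit, was 0 with quantile normalization, median centring, no filter, no trend, without _s_at, _x_at and _a_at probe sets, and with the spike-in level as a block, 2 with log2 of the signal plus 32, and 0 to 1 without 1 array. The count called lower was 0, and 0 to 1 without 1 array (Scn3a, without positive replicate 3; spike-in level and group are then 1 split). Cacna2d1 passed with the filter at the 60th percentile, with the offset, with the replicate block and without positive replicate 3. With the spike-in block it did not pass, and its difference was 0.75. Its adjusted p was 0.0551 with quantile normalization, 0.0503 with median centring, 0.229 with no filter and 0.267 with no trend. It was 0.0507 with the mean of probe sets, and 0.466 without suffixed probe sets, when 1433643_at stood for the gene. Without positive replicate 1 it was 0.147, without positive replicate 2 0.249, and without negative replicates 1, 2 and 3 0.0668, 0.168 and 0.148; its difference then lay between 1.06 and 1.66. The replicate block changed no call among channel genes (Cacna2d1 1.36, adjusted p = 0.0237).

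Of 603 values of named genes under alternatives, 553 kept direction and side of the threshold and 35, all of uncalled genes, turned sign; apart from the choice of probe set in the mean and suffix settings, the cause was not tested. With quantile normalization these were Cacna2d2 (0.17) and Kcnc1 (-0.008). With the mean of probe sets they were Cacna1b (0.20), Kcna2 (-0.011), Kcnc1 (-0.33), Kcnh3 (0.17), Kcnn1 (-0.08), Scn2a (0.20), Scn2b (0.06), Scn3a (0.52) and Scn8a (-0.088). Without suffixed probe sets it was Scn8a (-0.41). With the spike-in block they were Cacna1b (0.15), Cacna1h (-0.16), Cacna2d2 (0.051), Kcnh2 (0.46), Kcnn1 (-0.22), Scn2a (0.008) and Scn3a (0.073). Without 1 array the values ranged over -0.24 to 0.38 for Kcnc1, -0.23 to 0.26 for Kcnh3, -0.40 to 0.15 for Kcnj5, -0.45 to 0.62 for Kcnj6, -0.084 to 0.65 for Kcnmb4, -0.48 to 1.07 for Kcnn3 and -0.79 to 0.40 for Scn2b. Scn3b passed with the mean of probe sets and Kcnt2 with the offset. Depth in the sense of signal over background limits the 24 tested channel genes that were not above the filter level on every array, with a median standard error of 0.79.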
